A study of Ovis aries with 8 samples.

Results

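Genes of splicing and RNA binding were examined in the lungs of fetal sheep infused with aldosterone, the adrenal hormone that acts through the mineralocorticoid receptor. Members were the array probes whose description names a splicing factor, a nuclear ribonucleoprotein, an RNA-binding protein, an RNA helicase or polyadenylation, and 6 of the 15008 probes on the array met that rule. They stand for 5 genes: SRSF3 with 2 probes, and SNRPA, SNRPA1, SLIRP and DDX47 with 1 probe each. Of the 15008 probes only 1656 carried a gene name, and most descriptions name a cDNA clone or contig. The rule reads the description and not the name, and 1 member, DDX47, carried no gene name. The 5 genes are thus those with a worded description and not a survey of the splicing machinery. No probe was described as a heterogeneous nuclear ribonucleoprotein or by polyadenylation.

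The 8 lungs came from 4 sets of twins at about 130 days of gestation, where term is 147 days. In the aldosterone group, 1 fetus of each set received 0.2 mg of aldosterone over 48 hours, begun 5 days after surgery. In the control group its twin received vehicle. All 8 fetuses thus had surgery and an infusion, and breed and sex are not given in the sources used here. The comparison asks how the late-gestation lung responds to 48 hours of raised aldosterone, here in its RNA-processing genes.

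Splicing removes introns from pre-mRNA. The U1 particle, a complex of a small nuclear RNA with proteins, recognises the start of the intron and the U2 particle the branch site near its end, while SR proteins, named for their arginine and serine repeats, bind exons and help these particles assemble. Beyond the spliceosome, proteins with the RNA recognition motif stabilise and route other RNAs, and DEAD-box helicases remodel RNA structures with energy from ATP. The 5 genes sample each of these roles.

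Probes of this array are designed 60-base sequences, and the following are shown because they define which transcript each value belongs to. The SRSF3 probes overlap by 41 bases, printed in capitals, with starts at bases 207 and 226 of the transcript record, so they share a target and are no independent measurements of the gene. The SNRPA and SNRPA1 probes are whole. For SLIRP and DDX47 the last 30 bases are given, and the capitals in SLIRP mark AATAAA, the hexamer that commonly signals polyadenylation. All are written 5′ to 3′ as the deposited scanner files give them.
SRSF3 probe A: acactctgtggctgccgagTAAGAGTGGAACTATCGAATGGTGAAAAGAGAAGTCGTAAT
SRSF3 probe B: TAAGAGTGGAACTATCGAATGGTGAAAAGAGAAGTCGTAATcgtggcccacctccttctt
SNRPA: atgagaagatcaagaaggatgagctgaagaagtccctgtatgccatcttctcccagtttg
SNRPA1: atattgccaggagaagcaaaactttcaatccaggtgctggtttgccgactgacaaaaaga
SLIRP: gaccctcactgcctactgAATAAAgtaaat
DDX47: actctgaatgggaaatcataaatttaaata

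AATAAA was found on the probe strand in 1 of the 6 probes, against 5.63% of all 15008 probes, and on the other strand in 0 of the 6, against 3.70% of all. The share of G and C bases was 45% in the SRSF3 and SNRPA probes, 43.3% in the SNRPA1 probe and 35% in the SLIRP and DDX47 probes, where the median over all probes was 43.3%. The files list the probes without genome positions. DDX47 is named only from the description of an assembled cDNA contig as a partial match to the bovine protein, and its values are those of that contig.

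Each lung was measured on its own 1-colour array. Between 76.5% and 85.4% of the spots were well above background, and the 75th percentile of the processed signal lay between 10.23 and 10.73 on the log2 scale. A level below is the log2 of a probe's processed signal less that 75th percentile, so 0 is the brightness of the 75th percentile of the array, and levels of different probes cannot be set against each other. All 6 probes were well above background on all 8 arrays, and none was saturated or marked as an outlying spot. The scanner software's own error was about 10% of the signal for these spots. With 4 arrays a group, precision is limited by their number.

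No change of any of the 5 genes with aldosterone was detected. No member probe passed limma's adjusted threshold of 0.05, and neither did any of the 12168 probes tested over the array (0%). At an unadjusted p under 0.05 the count was 0 of 6, against 1.88% of all probes. The groups overlapped for all 6 probes, where 1.31% of all probes had groups that did not overlap. Of the 6 differences 2 were above 0 and 4 below, with a median of -0.02 on the log2 scale, beside a median of 0.01 over all tested probes. The adjusted p in limma was 0.9998 for each of the 6.

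**Figure D1:**
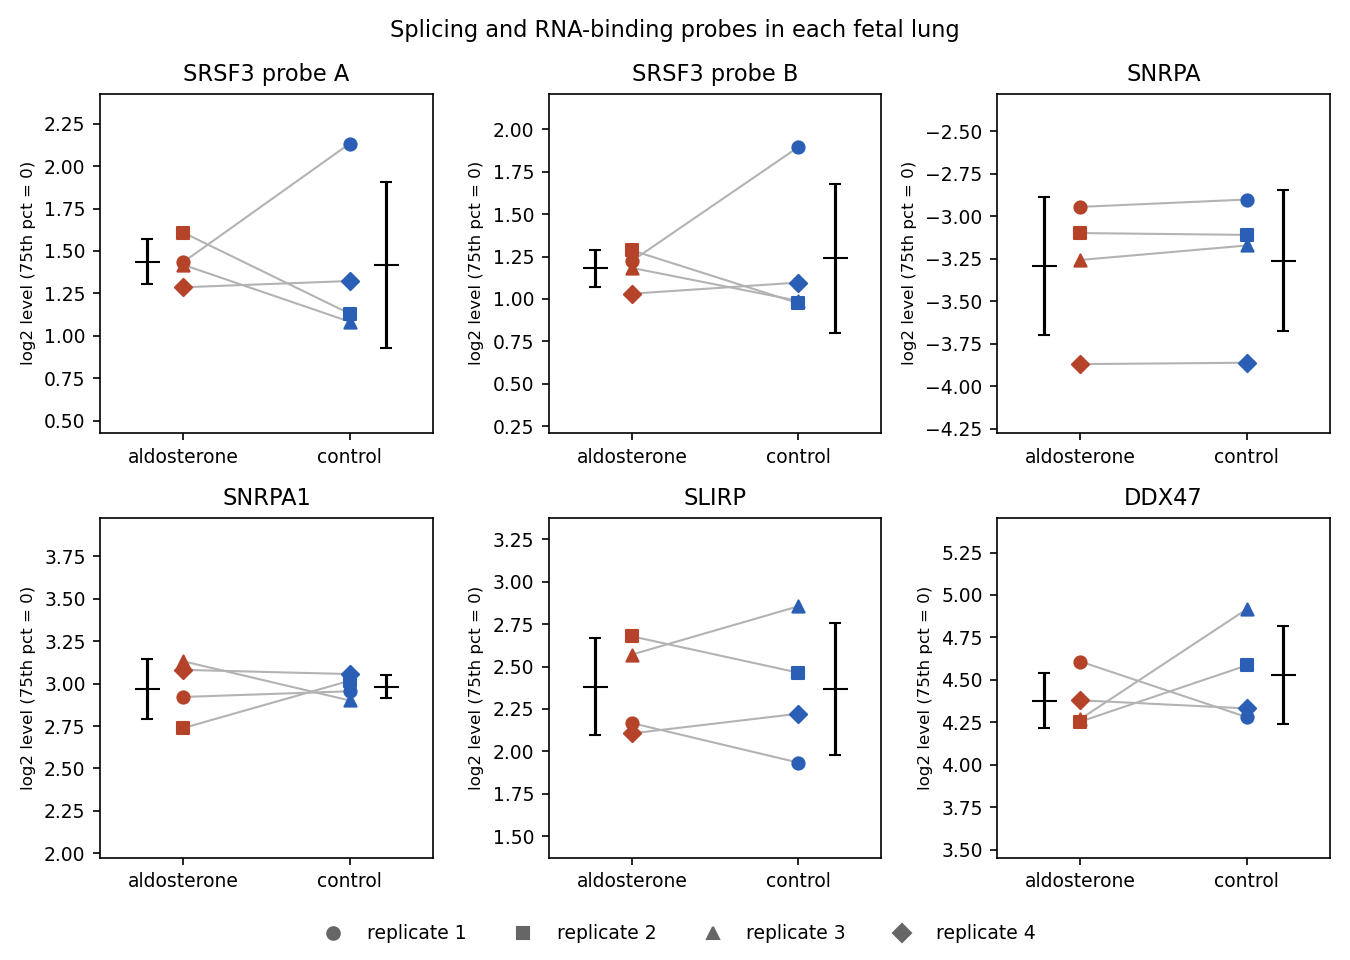
Log2 level of each of the 6 probes in each lung, relative to the array's 75th percentile. Points are lungs, shapes give the replicate number, grey lines join the same-numbered lungs, and the black marks are the mean and SD of 4 lungs. Every panel spans the same range of 2 log2 units. The groups overlap in every panel, control replicate 1 stands highest for both SRSF3 probes, and the SNRPA lines are nearly flat.

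SRSF3, also called SRp20, is the smallest of the classical SR proteins. It regulates exon choice and in human and mouse cells also regulates the splicing of its own transcript. On probe A its levels were 1.43, 1.61, 1.42 and 1.29 in aldosterone lungs of replicates 1 to 4, against 2.13, 1.13, 1.08 and 1.32 in control lungs. The control lung of replicate 1 was the highest of all 8, those of replicates 2 and 3 were below every aldosterone lung, and that of replicate 4 lay among them. The means were 1.44 ± 0.13 in aldosterone lungs and 1.42 ± 0.49 in control lungs (SD, n = 4 each). The log2 difference in limma was 0.02 ± 0.23 (SE), a fold change of 1.01 with a 95% interval from 0.702 to 1.46.

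Probe B gave 1.22, 1.29, 1.18 and 1.03 in aldosterone lungs, against 1.89, 0.98, 0.99 and 1.1 in control lungs. The means were 1.18 ± 0.11 in aldosterone lungs and 1.24 ± 0.44 in control lungs (SD, n = 4 each). The log2 difference was -0.06 ± 0.22 (SE), a fold change of 0.961 with an interval from 0.685 to 1.35. The probes thus gave differences of opposite sign, both much smaller than their errors. They ranked the lungs nearly alike: over the 8 lungs, which come from 4 twin sets, Pearson's r between the probes was 0.982, and the SD of the difference between them was 0.07 on the log2 scale. Spots of the same sequence repeated on an array had a median SD of 0.09 within an array, over 34 such probes. The 2 SDs are unlike measures, since the SD of the difference leaves out any constant offset between the probes.

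The high SRSF3 value of control replicate 1 was therefore seen on 2 separate spots of that array. It was 1.94 times the mean of the other 3 controls on probe A and 1.83 times on probe B (geometric means). Without that lung the controls averaged 1.18 ± 0.13 on probe A and 1.02 ± 0.07 on probe B (SD, n = 3), and the log2 difference became 0.26 on probe A and 0.16 on probe B, neither passing in limma (unadjusted p = 0.119 and 0.274, adjusted p = 0.9998 each). By pair, the aldosterone lung was higher in 2 of 4 on each probe, with differences on probe A of -0.70, 0.48, 0.33 and -0.04 for replicates 1 to 4.

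**Figure D2:**
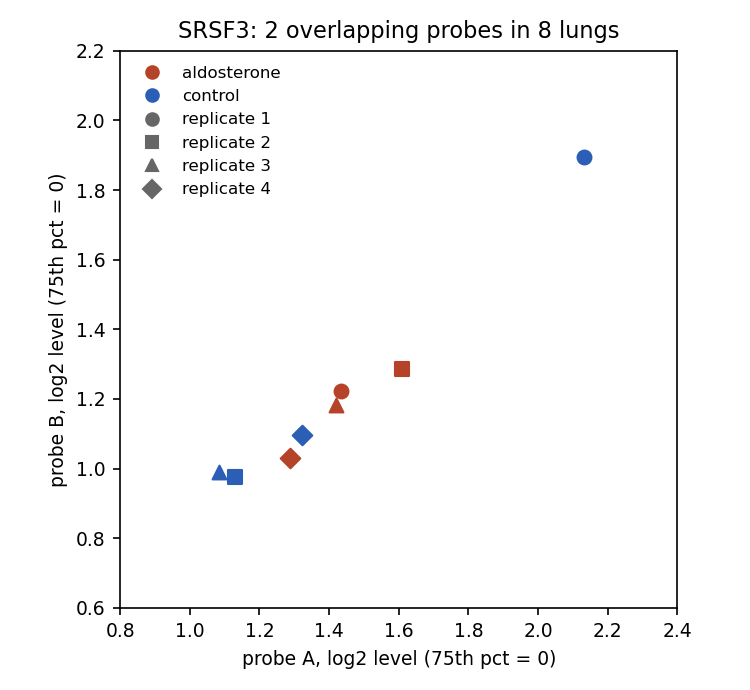
SRSF3 level on probe A (x) and on the overlapping probe B (y) in the 8 lungs, both as log2 relative to the array's 75th percentile. The lungs fall along 1 line (r = 0.982), and control replicate 1 lies apart at 2.13 and 1.89.

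SNRPA, a protein of the U1 particle, binds a stem loop of the U1 small nuclear RNA and in human cells also limits the polyadenylation of its own mRNA. Its levels were -2.94, -3.10, -3.26 and -3.87 in aldosterone lungs of replicates 1 to 4, against -2.90, -3.11, -3.17 and -3.86 in control lungs. Levels differed widely between replicate numbers but hardly within them. The means were -3.29 ± 0.41 in aldosterone lungs and -3.26 ± 0.42 in control lungs (SD, n = 4 each), and the log2 difference was -0.03 ± 0.26, a fold change of 0.978 with an interval from 0.648 to 1.48. With the replicate number as a block the difference was the same and its error fell to 0.10, with an interval on the log2 scale from -0.29 to 0.22. The block also lowered the median error over all tested probes, from 0.20 to 0.14.

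Within the same-numbered lungs the SNRPA differences were -0.04, 0.01, -0.09 and -0.01, so the largest was 0.09 in size. Between replicate numbers the mean of the 2 lungs ran from -2.92 to -3.87, a 1.92-fold span. The sum of squares between replicate numbers made up 99.5% of the total for SNRPA, higher than for 99.9% of 12146 tested probes with values on every array, whose median was 64.0%. It was 97.6% in the authors' deposited values and 98.1% after quantile normalization, but 68.4% after normexp background correction, where the median of all probes was 45.2%.

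SNRPA was dim for a measured probe, with processed signals of 221, 171, 133 and 82.3 in aldosterone lungs, against 223, 162, 157 and 86.2 in control lungs. The brightness of the arrays was also highest in replicate 1 and lowest in replicate 4 of each group. It fell in the same order as SNRPA in the aldosterone group. Control replicates 2 and 3 were close in brightness, at 10.45 and 10.47, with replicate 3 the brighter, while SNRPA was higher in replicate 2. The 75th percentile was 10.73, 10.52, 10.32 and 10.23 for the aldosterone arrays, against 10.70, 10.45, 10.47 and 10.29 for the control arrays, a 1.42-fold span. Its part in the SNRPA levels was not tested. Same-numbered arrays also lie next to each other on the slide, so replicate number and place on the slide cannot be told apart. That a replicate number marks a twin set is not stated in the labels.

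**Figure D3:**
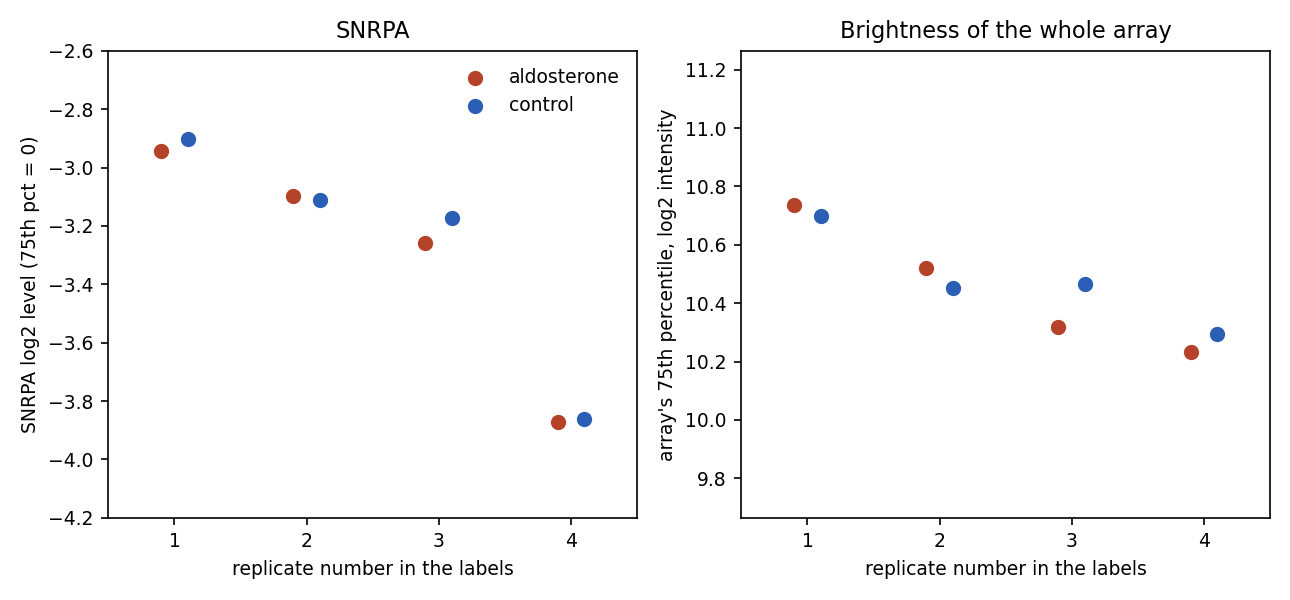
Left, SNRPA log2 level relative to the array's 75th percentile; right, that 75th percentile as log2 intensity; both by replicate number, with 1 point per lung and the same length of axis. Same-numbered lungs lie within 0.09 of each other for SNRPA, while replicate 4 is lowest in both panels.

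SNRPA1 is a leucine-rich repeat protein of the U2 particle, where with a partner protein it binds a stem loop of the U2 small nuclear RNA. Its levels were 2.92, 2.74, 3.13 and 3.08 in aldosterone lungs, against 2.95, 3.02, 2.90 and 3.06 in control lungs. All 8 values lay close together, with the aldosterone lungs of replicates 2 and 3 as the lowest and the highest. The means were 2.97 ± 0.18 and 2.98 ± 0.07 (SD, n = 4 each) in aldosterone and control lungs. The fold change was 0.990, with an interval from 0.802 to 1.22, the narrowest of the 6 probes in the fit with the group alone. With the block the SNRPA1 interval was -0.32 to 0.30 on the log2 scale, wider than that of SNRPA. The SD over the 8 lungs was 0.12, lower than for all but 5.50% of probes, beside 0.38 for SNRPA and a median of 0.29 over all.

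SLIRP binds RNA through a single recognition motif. In human and mouse cells it protects mitochondrial mRNAs together with LRPPRC, and it was described as a corepressor of nuclear receptors that binds the steroid receptor RNA activator. Its levels were 2.17, 2.68, 2.57 and 2.11 in aldosterone lungs, against 1.93, 2.46, 2.85 and 2.22 in control lungs. In both groups replicates 2 and 3 were above replicates 1 and 4, and the groups overlapped throughout. The means were 2.38 ± 0.29 in aldosterone lungs and 2.37 ± 0.39 in control lungs (SD, n = 4 each), a log2 difference of 0.01 ± 0.23 and a fold change of 1.01 with an interval from 0.707 to 1.44. Differences between replicate numbers made up 86.1% of the sum of squares, above 85.1% of tested probes. The block lowered the error to 0.14, which was also the median error over all tested probes with the block. That share was 84.5% after normexp correction.

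DDX47 is a DEAD-box helicase known in human cells and, as Rrp3, in yeast for processing of ribosomal RNA in the nucleolus rather than for splicing. The probe's levels were 4.61, 4.25, 4.27 and 4.38 in aldosterone lungs, against 4.28, 4.59, 4.92 and 4.33 in control lungs. The highest value was in control replicate 3, and the aldosterone lung was higher in 2 of 4 pairs. The means were 4.38 ± 0.16 in aldosterone lungs and 4.53 ± 0.29 in control lungs (SD, n = 4 each). The log2 difference of -0.15 ± 0.17 was the largest in size of the 6, with a fold change of 0.901, an interval from 0.685 to 1.19 and an unadjusted p in limma of 0.412. Of all tested probes, 18.9% had a lower difference. The block did not lower the error of DDX47, which was 0.18 with it. Unlike SNRPA, its values were not alike within pairs: replicate numbers held 15.9% of the sum of squares, a share below which lay only 4.44% of tested probes.

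**Figure D4:**
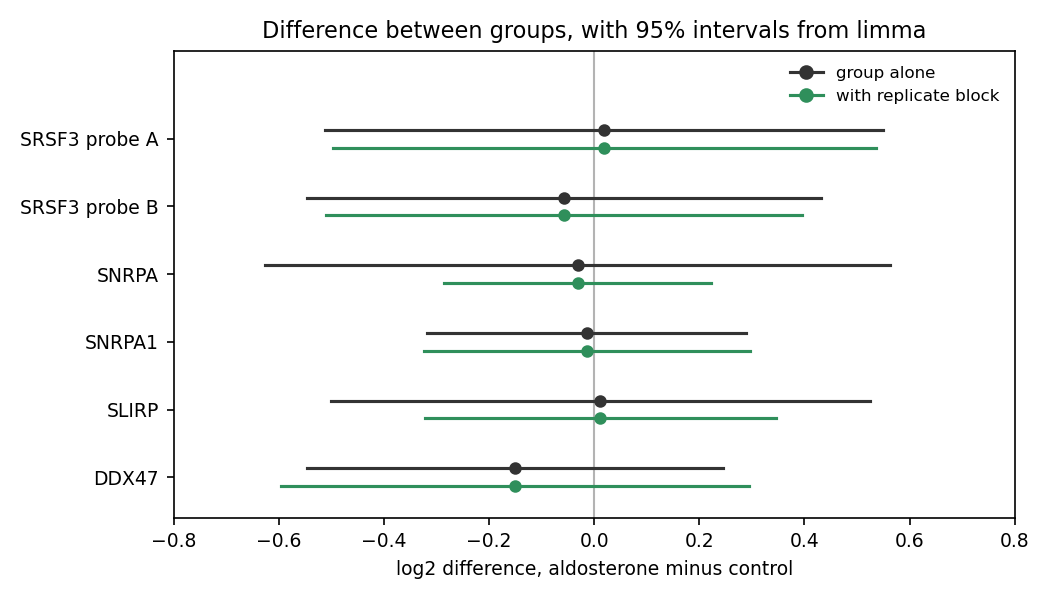
Log2 difference, aldosterone minus control, for each probe with its 95% interval from limma, in the fit with the group alone (dark, upper) and in the fit blocked on replicate number (green, lower). Every interval includes 0, and the SNRPA interval narrows to -0.29 to 0.22 with the block.

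The intervals set what these arrays could show. Fitted with the group alone, they reach from a fold change of 0.648 at the lowest to 1.48 at the highest over the 6 probes, so changes inside an interval cannot be told from none. With the block, 0 of 6 probes had an unadjusted p under 0.05, against 4.42% of all probes, and 0 passed after adjustment, against 0% of all. As these are RNA extracts of whole lung, fewer cells of a type and less RNA per cell cannot be told apart.

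**Figure D5:**
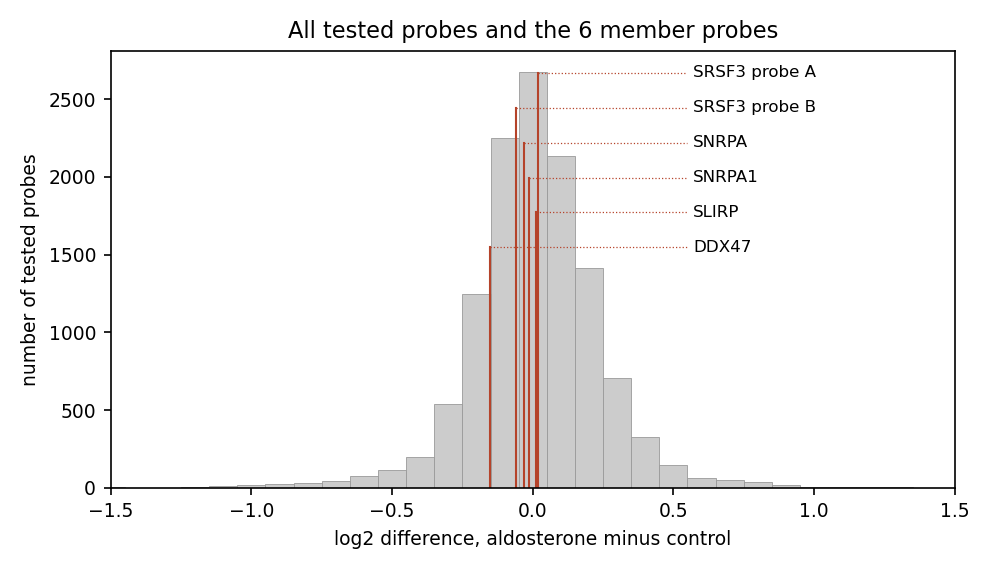
Histogram of the log2 difference, aldosterone minus control, over the 12168 tested probes, in bins of 0.1 and shown from -1.5 to 1.5, with the 6 member probes marked by vertical lines whose heights carry no value. All 6 lie near the centre, with DDX47 farthest out at -0.15.

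Of 76 further genes of RNA processing, listed by symbol, 3 were measured by a named probe and 0 passed in either direction. YBX1 is a cold-shock domain protein that binds mRNA. Its brighter probe averaged 5.07 ± 0.29 in aldosterone lungs and 4.94 ± 0.29 in control lungs (SD, n = 4 each). The log2 difference of YBX1 was 0.13 ± 0.20 on that probe and 0.19 ± 0.16 on the dimmer. ZFP36, which targets AU-rich mRNAs for decay, gave -0.28 ± 0.42 on the brighter of its 2 probes and -0.64 ± 0.60 on the dimmer, and POLR2G, a subunit of RNA polymerase II, -0.14 ± 0.15. PABPC1 and TRA2A lie outside that list and the description rule and were picked after their values were seen. PABPC1, the cytoplasmic poly(A)-binding protein, gave 0.15 ± 0.14 on its brighter probe and 0.14 ± 0.13 on the dimmer. TRA2A, a splicing regulator with SR repeats, gave -0.13 ± 0.16. None of these had groups that did not overlap.

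Lists of cell type markers were summed as the mean log2 level of their measured genes in each lung. Of 8 lung epithelial markers 5 were measured, the surfactant genes SFTPA1, SFTPB and SFTPC, AQP5 and SCGB3A2, and their mean level was 4.39 to 5.53 in aldosterone lungs and 4.76 to 5.62 in control lungs, above the 75th percentile in every lung. For cell division, 6 of 10 markers were measured and all 6 had higher means in aldosterone lungs, with mean levels of -2.32 to -1.36 against -2.71 to -2.50 in control lungs. With 4 lungs against 4 the smallest p that an exact permutation test can give is 0.029. A single list at that limit does not pass after Benjamini-Hochberg adjustment over 7 lists, so no p is given by list. None of the 6 splicing and RNA-binding probes separated the groups beside the cell division list. All 5 genes of neutrophil and myeloid granules had lower means in aldosterone lungs, with mean levels of -0.70 to 0.29 against -0.07 to 1.96 in control lungs, and so did all 3 measured red blood cell genes, with -0.80 to 2.01 against 0.04 to 2.00. The measured genes had higher and lower means in the lists of macrophages (3 and 1), T and natural killer cells (2 and 2) and muscle (1 and 1). No marker gene passed limma's adjusted threshold. The part of cell make-up in the members' values was not tested.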

How the data were processed

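Total RNA (450 ng, labelled with Cy3) of 8 fetal lungs, 4 per group, was hybridised to 1-colour Agilent sheep arrays on 1 slide and in 1 scan. Per the file headers, the authors made the deposited spot intensity values with Agilent Feature Extraction 10.1.1.1, which subtracts background and removes spatial trends within an array. In the table of the whole series that the authors deposited, values are log2 and differ from the log2 processed intensity of the same spot by a constant per array. Each of its columns has a median of 0.

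From the scanner files, log2 processed intensity less the 75th percentile of the array was averaged over spots of a probe (15208 spots, 15008 probes), leaving out 74 values with outlier flags. Probes well above background on at least 4 arrays were tested (12168) with limma 3.58.1 in R 4.3.3, two-sided, Benjamini-Hochberg adjusted over all. Standard errors and 95% intervals are limma's. The steps were tested on simulated data. Names were updated through RefSeq's table of ARS-UI_Ramb_v3.0 (SFRS3 to SRSF3, SNPRA1 to SNRPA1). The text names every member, since the rule for named genes covered all 6. Members and lists were chosen with earlier results of these data known.

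The main model held the group alone. After removal of group means, same-numbered lungs correlated at 0.446, 0.275, 0.280 and 0.538 over 12146 probes, others at -0.449 to 0.203. Every same-numbered pair exceeded the limit of 0.1, but so did the highest of the others, at 0.203. Removal of group means itself lowers the correlations among lungs of the same group, so the contrast is partly built in. The numbers were read as pairs on that ground alone: the series' design describes twins, but no label says that a number marks a twin set. Alternatives were median centring, quantile normalization, normexp (offset 50), the authors' values, other filters, the block and leaving out each lung.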

Additional observations from a re-analysis of the deposited data

Results flagged for a closer look

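The control lung of replicate 1 stood apart from the other 3 controls for SRSF3 on probe B, with a gap to its nearest neighbour of 0.868 of the range of the group, above Dixon's 95% critical value for 4 samples. On probe A, which shares 41 bases with it, the same lung was highest with a ratio of 0.772, below that value. In all, 12 groups of values were examined, and chance alone puts about 1 in 20 such groups past the critical value.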

How the results depend on the processing

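Under 15 alternatives, 8 of which left out a lung, the counts of member probes past the adjusted threshold and at an unadjusted p under 0.05 stayed at 0, as did the count of all probes past the adjusted threshold. The smallest adjusted p of a member was 0.501. The median log2 difference of the 6 probes, -0.02, depended on single lungs: it was -0.090 without aldosterone replicate 2, 0.031 without aldosterone replicate 4 and 0.033 without control replicate 1, and between these values without any other lung. It was -0.061 after median centring, -0.085 after normexp and -0.081 in the authors' values. The replicate block cannot move a difference in this balanced design, leaving that median at -0.02, and it changed no call. Over all probes the count at an unadjusted p under 0.05 was 229, 538 with the block, 1248 after normexp, and 143 to 420 when 1 lung was left out. Normexp also moved the median of all probes to 0.17.

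Single-probe differences kept their sign in 67 of 90 cases and changed it in 23. SLIRP gave -0.027 after median centring, -0.061 after normexp and -0.047 in the authors' values, and SRSF3 probe A gave -0.019, -0.040 and -0.039 there. SNRPA1 gave 0.0029 after quantile normalization, and SNRPA 0.32 after normexp. With 1 lung left out the ranges were -0.092 to 0.26 for SRSF3 probe A, -0.15 to 0.16 for probe B, -0.23 to 0.16 for SNRPA, -0.068 to 0.062 for SNRPA1, -0.13 to 0.17 for SLIRP and -0.23 to -0.02 for DDX47. The SNRPA levels after normexp of replicate 1 were -1.78 in the aldosterone lung and -2.52 in the control lung, although the uncorrected spot signals were 307 and 310 over local backgrounds of 68 and 72; the cause was not tested. The variance share of SNRPA under other scalings was added after seeing the data.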
